A study of Mus musculus with 6 samples.

Results

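The antioxidant and NRF2 response genes were followed in hematopoietic stem cells (HSCs) that lack Merit40. They are 10 genes, Nfe2l2, Keap1, Hmox1, Nqo1, Gclc, Gclm, Txnrd1, Sod1, Sod2 and Cat, chosen by name as the NRF2 regulators, haem oxygenase and the main enzymes against reactive oxygen. All 10 were found by Entrez Gene number, each with 1 probe set, among 23185 named genes. None was filtered out for low signal. Each of 6 Affymetrix Mouse Gene 2.0 ST arrays measured RNA of 1 sample, 3 of them from Merit40-/- and 3 from wild-type (WT) mice. In both groups the cells were untreated HSCs taken fresh from the bone marrow of mice labelled as young, and sorted 2 times for the CD150+CD48- LSK phenotype (lineage-negative, Sca-1+, c-Kit+). The protein Merit40 is the product of Babam1 and a part of both deubiquitinase complexes that cut lysine-63-linked ubiquitin chains, BRISC and BRCA1-A. The labels call each array a biological replicate. They name neither a Cre nor another allele, nor the sex of the mice or how many were used for each array. The p-values therefore set the difference between genotypes against the spread between these arrays.

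NRF2, the product of Nfe2l2, is the transcription factor that switches on defence against oxidants and electrophiles. KEAP1 holds it in the cytoplasm and hands it to the CUL3 ubiquitin ligase for destruction, until oxidants modify KEAP1 and NRF2 escapes to bind antioxidant response elements (AREs) beside its target genes. HSCs are known to keep reactive oxygen low, and excess reactive oxygen drives them out of quiescence. NRF2 activity is set largely through the stability of its protein, which an RNA array does not measure.

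The ARE is the sequence through which NRF2 acts, so the promoters of the members were searched for its core, TGACNNNGC, on both strands. The windows are those of RefSeq (build GRCm38.p6) and run from 250 bases before to 50 bases after each annotated start. Of the 10 genes, 8 had at least 1 window, and Hmox1 and Gclc had none in the table. The core was found for 4 of these 8 genes and in 4 of their 10 windows, compared with 12.4% of all 32851 windows and 14.0% of 27025 genes. The matches are given in the direction of the gene, with up to 25 bases on each side and the core in capitals.
Nfe2l2, chr2:75704870-75704913, minus strand: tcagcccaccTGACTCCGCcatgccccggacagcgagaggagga
Gclm, chr3:122245398-122245456, plus strand: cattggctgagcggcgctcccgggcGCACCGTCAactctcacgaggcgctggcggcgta
Txnrd1, chr10:82859089-82859147, plus strand: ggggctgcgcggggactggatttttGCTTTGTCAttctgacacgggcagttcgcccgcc
Sod1, chr16:90220681-90220739, plus strand: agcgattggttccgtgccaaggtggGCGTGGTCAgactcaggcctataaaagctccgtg

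In Nfe2l2 the core reads along the gene as TGACTCCGC, 240 bases before the start. In the other three it lies on the opposite strand and reads there as TGACGGTGC in Gclm, TGACAAAGC in Txnrd1 and TGACCACGC in Sod1, at 134, 92 and 56 bases before the start. Txnrd1 had 3 annotated windows, of which 1 held the core. The AP-1 site TGACTCA, which overlaps some AREs, and the FOXO site GTAAACA were found in 0 of the 10 windows, compared with 5.20% and 3.65% of all windows. The member windows had a GC content of 48.0% to 79.7%, against a median of 52.7% over all windows. The 4 windows with the ARE core had 61.3% to 79.7%, and the shares over all windows were not matched for GC content. These matches describe the letters of the windows and not binding, and sequence outside the windows was not searched.

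The arrays carried the marker genes of HSCs and also those of other marrow cells. Kit read 10.93 to 11.16, Hlf 10.33 to 10.83 and Slamf1, which encodes CD150, 7.71 to 8.63 on the log2 scale, and none of the 7 HSC markers measured lay below the median level of all genes (4.93) in every array. None of the 10 granulocyte markers lay below that median in every array either, with S100a8 at 11.71 to 12.12. As a list they summed to 13.27 to 13.77 in Merit40-/- and 13.52 to 13.66 in WT (log2 of the summed unlogged values). Among these 10, 7 were higher in Merit40-/- and 0 were called, and their differences ran from -0.13 for Camp to 0.92 for Ctsg. The 9 skeletal muscle markers summed to 12.64 in Merit40-/- replicate 1, against 8.22 and 8.44 in the other Merit40-/- arrays and 7.94 to 8.31 in WT. The 7 osteoclast markers summed to 9.37 in Merit40-/- replicate 3, against 7.32 and 7.42 in the other Merit40-/- arrays and 7.11 to 7.31 in WT. For some members, differences are therefore also given without those arrays. For single genes of the related lists below, differences are given over all arrays only. Babam1, the deleted gene, averaged 4.06 ± 0.21 in Merit40-/- and 8.0 ± 0.08 in WT (SD, n = 3 each), and was the 1 gene to pass the threshold.

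None of the antioxidant and NRF2 response genes passed the test between genotypes. In limma, where a call meant a Benjamini-Hochberg adjusted p under 0.05 over all 23185 genes, 0 of 10 were called, with an adjusted p of at least 0.999 for each. Over all genes the share called was 0.00431%. At an unadjusted p under 0.05 there was 1 member, Hmox1, where the share over all genes was 4.22% (2.26% higher in Merit40-/-). Of the 10 members, 5 were higher and 5 lower in Merit40-/-, against 51.5% higher over all genes. The median difference, Merit40-/- minus WT, was -0.016 for the members and 0.0052 for all genes on the log2 scale.

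**Figure D1:**
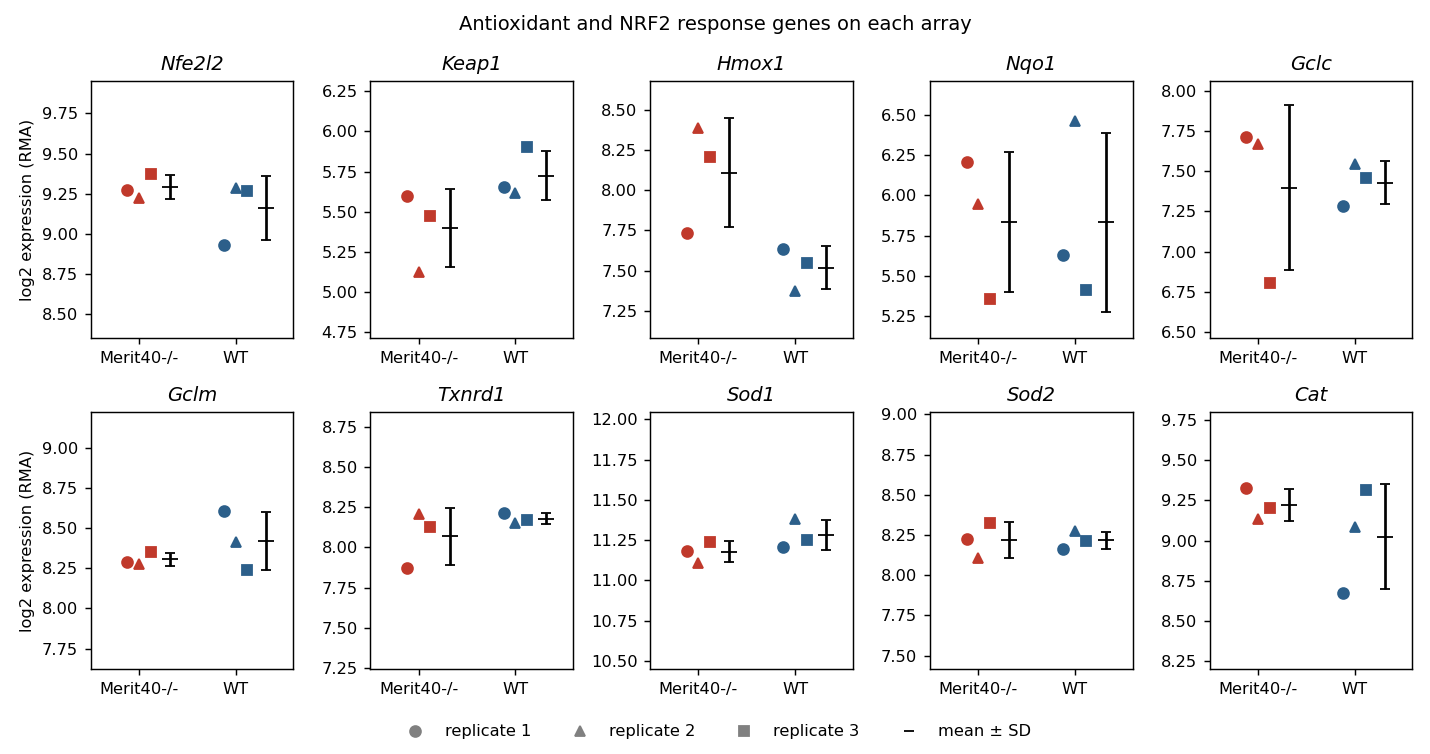
Level of each member (log2 expression after RMA, each panel spanning the same 1.6 log2 units) on the 3 Merit40-/- arrays in red and the 3 WT arrays in blue, with the mean and SD in black. The arrays of the genotypes do not overlap for Hmox1 and Keap1, and the arrays of each genotype are widely scattered for Nqo1.

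Among the regulators, Nfe2l2 differed by less than its error. It read 9.27, 9.23 and 9.37 on the Merit40-/- arrays, against 8.93, 9.28 and 9.27 on the WT arrays. The groups overlapped, and WT replicate 1 was the low array. Its difference was 0.13 (SE 0.14), with a 95% interval of -0.18 to 0.44, and it was 0.01 without that array.

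Keap1, the inhibitor that targets NRF2 for degradation, read 5.60, 5.13 and 5.47 on the Merit40-/- arrays, against 5.65, 5.62 and 5.90 on the WT arrays. Every Merit40-/- array was below every WT array, though Merit40-/- replicate 1 and WT replicate 2 lay only 0.02 apart. The means were 5.40 ± 0.24 in Merit40-/- and 5.72 ± 0.15 in WT (SD, n = 3 each). The difference of -0.32 (SE 0.16, 95% interval -0.69 to 0.04) did not pass, with an unadjusted p of 0.0726 and an adjusted p of 0.999 in limma. It was -0.19 without Merit40-/- replicate 2, the lowest array. Without Merit40-/- replicate 1 it was -0.42, and without Merit40-/- replicate 3 it was -0.36. It was -0.60 when these arrays with muscle and osteoclast genes were both left out. That leaves the lowest array as the only one of its genotype. The levels of Keap1 lie near the median of all genes, where log2 differences on arrays are compressed.

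Hmox1 had the largest difference of the members and was higher in Merit40-/-. It encodes the inducible haem oxygenase, which breaks haem down to biliverdin, iron and carbon monoxide, and is a classical NRF2 target that BACH1 represses. It read 7.73, 8.38 and 8.21 on the Merit40-/- arrays, against 7.63, 7.37 and 7.55 on the WT arrays. The groups did not overlap, but Merit40-/- replicate 1 stood only 0.10 above the highest WT array. The means were 8.11 ± 0.34 in Merit40-/- and 7.52 ± 0.13 in WT (SD, n = 3 each), a difference of 0.59 (SE 0.18, 95% interval 0.17 to 1.01), or 1.51-fold. The unadjusted p was 0.0114 and the adjusted p 0.999 in limma, and 180 genes had a smaller unadjusted p. An exact 2-sided permutation test gave p = 0.1 for Hmox1 and likewise for Keap1, the lowest p that 3 arrays against 3 can give.

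The Hmox1 difference was 0.78 once Merit40-/- replicate 1, which carried the muscle genes, was left out (SE 0.15), and 0.54 without replicate 3 (SE 0.21). Macrophages that clear red cells are rich in Hmox1, and the 10 macrophage markers summed to 8.82, 8.94 and 9.24 on the Merit40-/- arrays, against 9.07, 8.95 and 8.71 on the WT arrays. These sums overlapped between genotypes, and 3 of the 10 markers, Csf1r, Adgre1 and Slc40a1, lay below the median of all genes in every array. The iron exporter Slc40a1 read 4.32 to 4.57 in Merit40-/- and 4.23 to 4.65 in WT, and the macrophage receptor Adgre1 3.54 to 4.01 in Merit40-/- and 3.82 to 4.45 in WT. The arrays of both overlapped between genotypes, as did those of Spic, a transcription factor induced by haem in such macrophages, which read 6.57 to 7.0 in Merit40-/- and 6.53 to 6.81 in WT. Of the 10 markers 7 were higher and 3 lower in Merit40-/-, with 0 called, and their differences ran from -0.39 for Vcam1 to 0.29 for C1qb. C1qb read 5.79, 6.61 and 6.77 on the Merit40-/- arrays, against 6.30, 6.05 and 5.96 on the WT arrays. Like Hmox1, it was highest on Merit40-/- replicates 2 and 3. Vcam1 read 4.74, 4.88 and 4.60 on the Merit40-/- arrays, against 5.26, 5.31 and 4.81 on the WT arrays. The part of macrophage RNA in the Hmox1 difference was not tested, and in bulk samples fewer cells of a type and less RNA per cell cannot be told apart.

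The share of members whose arrays do not overlap was 2 of 10, Hmox1 above and Keap1 below, where over all genes it was 9.05% (4.84% with the Merit40-/- arrays above and 4.22% with them below). With this few members the count says little.

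**Figure D2:**
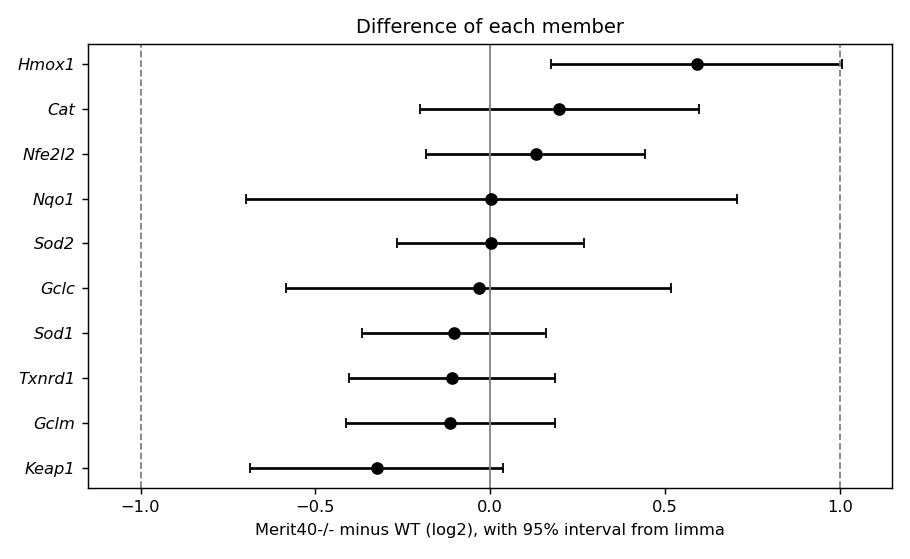
Log2 difference of each member (Merit40-/- minus WT) with its 95% interval from limma, ordered from the highest at the top, with dashed lines at a 2-fold difference in either direction. The interval of Hmox1 lies above 0 and just crosses 2-fold, and the other 9 intervals include 0 and lie within 2-fold.

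The enzymes that make glutathione and reduce quinones and thioredoxin, all NRF2 targets, showed no shared direction. Nqo1, a quinone reductase, read 6.21, 5.94 and 5.36 on the Merit40-/- arrays, against 5.63, 6.47 and 5.41 on the WT arrays. Both genotypes were spread over the same range, so that its difference of 0.0029 had an SE of 0.31. Only 3.0% of all genes had a larger SE, and the 95% interval of -0.70 to 0.71 leaves room for a 1.63-fold difference in either direction.

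Gclc encodes the catalytic and Gclm the modifier subunit of glutamate-cysteine ligase, the rate-limiting enzyme of glutathione synthesis. Gclc read 7.72, 7.67 and 6.81 on the Merit40-/- arrays, against 7.28, 7.55 and 7.46 on the WT arrays. The low array was Merit40-/- replicate 3, the one with osteoclast genes, and the groups overlapped. The difference was -0.03 (SE 0.24), and 0.26 without that array. Gclm read 8.29, 8.28 and 8.35 on the Merit40-/- arrays, against 8.61, 8.41 and 8.24 on the WT arrays. Its groups also overlapped, with a difference of -0.11 (SE 0.13). Over all arrays neither subunit gene differed by more than its SE. Without Merit40-/- replicate 3, Gclc stood at 0.26 (SE 0.14) with no overlap and Gclm at -0.14 (SE 0.15), and neither passed. A joint or opposed shift of the subunit genes was not tested.

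Txnrd1, the cytosolic selenoprotein that reduces thioredoxin, read 7.87, 8.21 and 8.13 on the Merit40-/- arrays, against 8.22, 8.15 and 8.17 on the WT arrays. The low array was Merit40-/- replicate 1, the one with muscle genes. The difference was -0.11 (SE 0.13) over all arrays and -0.01 without it.

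The superoxide dismutases, which turn superoxide into hydrogen peroxide, had the smallest errors of the members and overlapping arrays. Sod1, the copper-zinc superoxide dismutase of the cytosol, read 11.18, 11.11 and 11.24 on the Merit40-/- arrays, against 11.21, 11.38 and 11.25 on the WT arrays. Its difference was -0.10 (SE 0.11, 95% interval -0.37 to 0.16). Sod2, the manganese enzyme of mitochondria, read 8.23, 8.11 and 8.32 on the Merit40-/- arrays, against 8.16, 8.27 and 8.21 on the WT arrays. The WT values lay inside the range of the Merit40-/- values, and the difference was 0.0017 (SE 0.12, 95% interval -0.27 to 0.27). These intervals bound a difference of either dismutase transcript to 1.29-fold as read on the array.

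Cat, which encodes catalase, read 9.33, 9.13 and 9.20 on the Merit40-/- arrays, against 8.67, 9.08 and 9.31 on the WT arrays. The WT arrays were more scattered (SD 0.33) than the Merit40-/- arrays (SD 0.10), with WT replicate 1 as the low array. The difference was 0.20 (SE 0.17), 0.02 without WT replicate 1 and 0.14 without Merit40-/- replicate 1. Red cells are rich in catalase, and the 7 red cell markers measured summed to 10.14, 10.75 and 9.93 on the Merit40-/- arrays, against 10.99, 10.55 and 9.80 on the WT arrays. These sums overlapped between genotypes. Among the 7 markers, 1 was higher in Merit40-/- and 0 were called, and their differences ran from -0.90 for Ermap to 0.43 for Rhag. The part of red cell RNA in the Cat values was not tested. For 9 of the 10 members, all but Hmox1, the 95% interval lay within 2-fold in either direction, against 96.4% of all genes.

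The wider pathway was read in 4 further lists, which held 83 genes, of which 75 were measured here. Of these 0 rose and 0 fell past the threshold in limma, and 3 of 75 had an unadjusted p under 0.05, where the share over all genes was 4.22%. In all 48 of the 75 were higher in Merit40-/- and 27 lower, with a median difference of 0.08, beside 51.5% higher and a median of 0.0052 over all genes. The arrays did not overlap for 10 of the 75, 9 with Merit40-/- above and 1 below, or 13.3% against 9.05% of all genes.

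**Figure D3:**
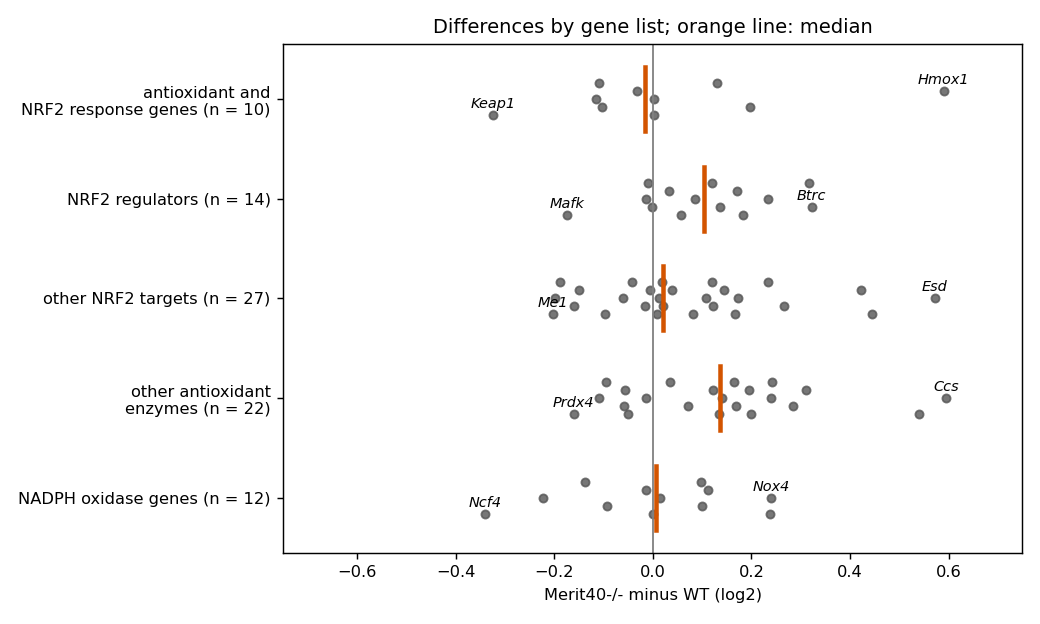
Log2 difference of each gene (Merit40-/- minus WT) for the 10 antioxidant and NRF2 response genes and 4 related lists, with each list's median as an orange line and its lowest and highest gene named. The medians lie between -0.016 and 0.14, and no gene plotted passed the threshold of an adjusted p under 0.05.

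Of the 14 partners and regulators of NRF2, 10 were higher and 4 lower, 0 were called, and the median was 0.10. Btrc, a substrate receptor of a second ubiquitin ligase for NRF2, read 7.47, 7.79 and 7.60 on the Merit40-/- arrays, against 7.12, 7.47 and 7.31 on the WT arrays. Its groups did not overlap, by a gap of 0.0067, and the difference of 0.32 (SE 0.14) did not pass. The small MAF proteins are the DNA-binding partners of NRF2, and of these Maff differed by 0.32 (SE 0.18) and Mafk, the lowest of the list, by -0.17 (SE 0.13). Cul3, the ligase scaffold that works with KEAP1, differed by 0.06 (SE 0.13), and Bach1, the repressor of Hmox1, by 0.18 (SE 0.14). The erythroid and megakaryocytic relative Nfe2 was the second lowest of the list at -0.01 (SE 0.12).

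Of 27 other NRF2 targets measured, 17 were higher and 10 lower, 0 were called, and the median was 0.02. Esd, an esterase of glutathione-linked formaldehyde removal, was the highest. It read 7.54, 8.19 and 7.72 on the Merit40-/- arrays, against 7.38, 7.08 and 7.27 on the WT arrays. The groups did not overlap, and the difference was 0.57 (SE 0.18), with an unadjusted p of 0.0134 and an adjusted p of 0.999 in limma. The glutathione transferase Gsta4 followed at 0.45 (SE 0.23). At the other end, the malic enzyme Me1 differed by -0.20 (SE 0.27) and the sulfiredoxin Srxn1, which repairs peroxiredoxins, by -0.20 (SE 0.14). Me1 read below the median level of all genes on every array. The enzymes that follow haem oxygenase, the biliverdin reductases Blvra and Blvrb, differed by 0.02 (SE 0.19) and -0.16 (SE 0.12).

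Of 22 other glutathione, thioredoxin, peroxidase and superoxide enzymes measured, 15 were higher and 7 lower, 0 were called, and the median was 0.14. The highest was Ccs, the chaperone that loads copper into SOD1, with 7.13, 7.16 and 7.92 on the Merit40-/- arrays, against 6.31, 7.02 and 7.09 on the WT arrays. Its groups did not overlap, by a gap of 0.03. The high array was Merit40-/- replicate 3, the one with osteoclast genes, and the low one was WT replicate 1. The difference was 0.60 (SE 0.27) and did not pass, with an unadjusted p of 0.0601 in limma. Gpx3, a secreted glutathione peroxidase, differed by 0.54 (SE 0.17) but lay below the median of all genes, at 4.62 in Merit40-/- and 4.08 in WT. The Gpx3 groups did not overlap, and its unadjusted p was 0.0138 and its adjusted p 0.999 in limma. Prdx4, a peroxiredoxin of the endoplasmic reticulum, differed by -0.16 (SE 0.22) and Sod3, the extracellular dismutase, by -0.11 (SE 0.15). Hmox2, the constitutive haem oxygenase, read 8.60, 8.89 and 8.71 on the Merit40-/- arrays, against 8.58, 8.57 and 8.46 on the WT arrays. Its difference was 0.20 (SE 0.12), smaller than that of Hmox1, and the difference between the paralogs was not tested.

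The NADPH oxidase genes encode enzymes that make reactive oxygen, and subunits of these enzymes. Of 12 measured, 6 were higher and 6 lower, 0 were called, and the median was 0.0070. Ncf4 and Ncf1, cytosolic subunits of the phagocyte oxidase, differed by -0.34 (SE 0.17) and -0.22 (SE 0.18). The oxidases Nox4 and Duox2 had the highest differences, 0.24 (SE 0.16) and 0.24 (SE 0.15). Duox2 read below the median level of all genes on every array, and Nox4 averaged near it, at 4.92 in Merit40-/- and 4.68 in WT. Rac2, the small GTPase of the phagocyte oxidase, differed by -0.01 (SE 0.18).

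**Figure D4:**
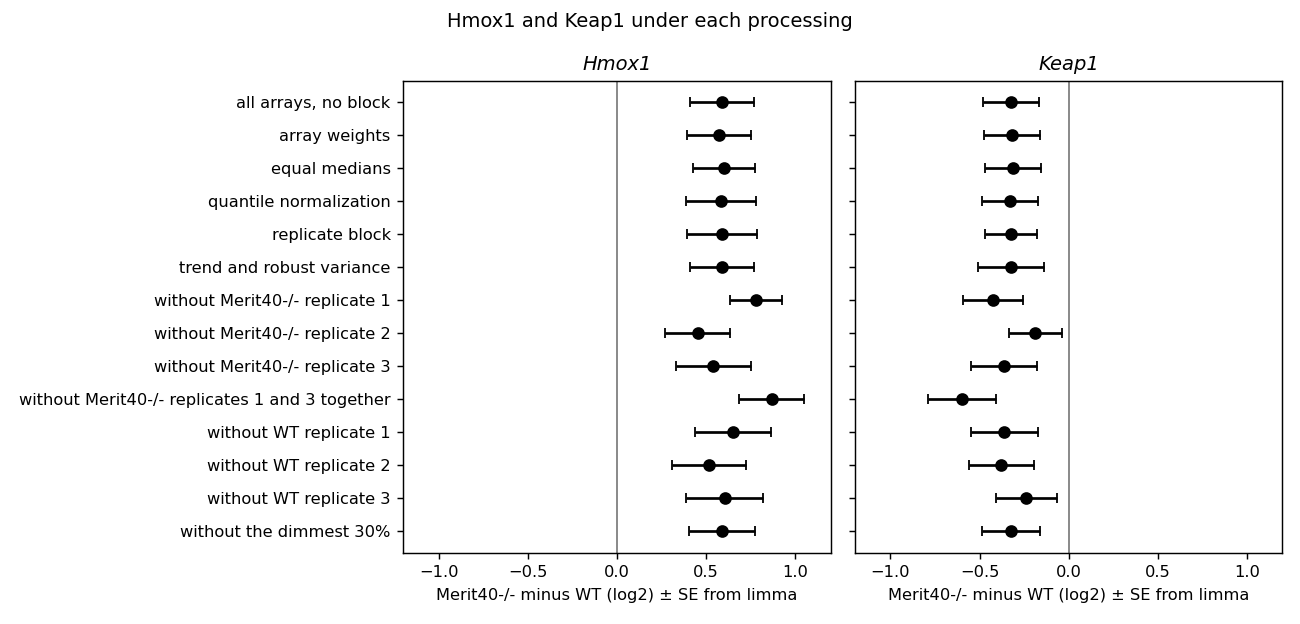
Log2 difference (Merit40-/- minus WT) of Hmox1 (left) and Keap1 (right) with the SE from limma, for all arrays at the top and 13 alternative ways of processing below, of which 1 keeps a single Merit40-/- array. Hmox1 stayed between 0.45 and 0.87 and Keap1 between -0.60 and -0.19, with no adjusted p below 0.05.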

How the data were processed

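The authors deposited 1 log2 value for each probe set on each array. The submitters' processing notes name RMA and affy. Their versions, the chip definition and the build were not given in the sources used here. RMA equalises the arrays' distributions, which removes overall differences in RNA, and it compresses differences of dim genes. Array medians were 4.91 to 4.97 over 25206 probe sets, of which 23185 had 1 gene symbol, 0 had several and 2021 were unnamed. Symbols were updated by Entrez number in the RefSeq gene table (GRCm38.p6). Levels were not compared between genes as amounts of transcript, and the median of all genes (4.93) serves as a mark of low signal.

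All 23185 named genes were fitted in R 4.3.3 with limma 3.58.1 (lmFit, eBayes), with no term but genotype, 2-sided tests, Benjamini-Hochberg adjustment and a threshold of 0.05. Differences are Merit40-/- minus WT with moderated SE. The fit was tested on simulated data. Exact permutation tests used SciPy 1.17.1. Precision is limited by having 3 arrays per genotype. The 95% interval of the median gene spanned ±0.342.

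The members and lists were chosen with earlier results of these data known. The text names all members, Babam1 and, in each related list, the 2 highest and 2 lowest differences. Cul3, Bach1, Blvra, Blvrb, Hmox2, Rac2 and single markers were named after their values were seen. Of 83 genes in the related lists, 8 were not analysed here. Alternatives were a replicate block, a trended robust variance, array weights, 2 scalings, a filter on dim genes and each array left out. Leaving out Merit40-/- replicates 1 and 3 together was chosen after seeing the data.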

Additional observations from a re-analysis of the deposited data

How the results depend on the processing

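No antioxidant or NRF2 response gene and no gene of the related lists passed the threshold under any of the 13 alternatives in limma, and Hmox1, Keap1, Nfe2l2, Gclm, Sod1 and Cat kept their direction in all 13. Over all genes, 1 was called in each, except without Merit40-/- replicates 1 and 3 together, where 2 were called. The second was the microRNA gene Mir3079, in a fit with 1 Merit40-/- array that is assumed to vary like the WT arrays. The members without overlap numbered 2, but 4 without Merit40-/- replicate 3 and 4 without WT replicate 3. With 1 array left out they ranged from 2 to 4, and they numbered 5 without Merit40-/- replicates 1 and 3 together. Fewer arrays make overlap less likely, and the share over all genes was not counted with arrays left out. These counts therefore cannot be set against the 9.05% over all arrays, and nothing about the members is read from them. The members higher in Merit40-/- numbered 3 without Merit40-/- replicate 1 and 3 without WT replicate 1, against 5 over all arrays, and ranged from 3 to 6 with 1 array left out. The members' median difference, -0.016 over all arrays, was 0.047 without Merit40-/- replicates 1 and 3 together. Differences near 0 changed sign, and the cause was not tested. Nqo1 was -0.18 without Merit40-/- replicate 1, -0.051 without Merit40-/- replicate 2, -0.10 without WT replicate 1 and -0.21 without WT replicate 3. Gclc was 0.0059 with array weights, 0.26 without Merit40-/- replicate 3, 0.03 without WT replicate 2 and 0.24 without Merit40-/- replicates 1 and 3 together, where Txnrd1 was 0.029. With 1 array left out, Nqo1 ranged from -0.21 to 0.32, Gclc from -0.19 to 0.26 and Sod2 from -0.051 to 0.058. Sod2 was -0.00058 after quantile normalization, -0.0015 without Merit40-/- replicate 1, -0.051 without Merit40-/- replicate 3, -0.02 without WT replicate 1 and -0.11 without Merit40-/- replicates 1 and 3 together. With the replicate block, 1 gene was called over all genes and 0 members, and Hmox1 had an SE of 0.19 and an adjusted p of 1.00 in limma. Same-numbered arrays deviated from their group means with correlations of -0.05, -0.0027 and 0.04 over all genes. These values show no shared deviation over all genes, but cannot tell whether same-numbered arrays were handled together.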
